A study of Mus musculus with 2 samples.

Results

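The mouse MHC class I presentation machinery was followed in leukocytes of CT-2A brain tumours as 10 genes among the 32285 genes of the count matrices. The genes were taken by symbol and were H2-K1, H2-D1, B2m, Tap1, Tap2, Tapbp, Nlrc5, H2-Q4, H2-Q6 and H2-Q7. All 10 had UMIs (unique molecular identifiers, 1 per captured RNA molecule) in each of the 9 cell types compared here.

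MHC class I molecules display peptides from a cell's own proteins to CD8 T cells. A heavy chain (H2-K1 and H2-D1 encode the classical ones) pairs in the endoplasmic reticulum with beta-2 microglobulin (B2m), and peptides are pumped in by the transporter TAP (Tap1 and Tap2) and loaded with the help of tapasin (Tapbp). Nlrc5 is the transactivator of class I promoters, interferon-gamma raises the whole set, and H2-Q6 and H2-Q7 belong to the Qa-2 group of non-classical heavy chains. In the healthy brain class I is low, and microglia and infiltrating phagocytes raise it in inflammation.

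The data were 1 library of CD45+ cells from Glut5 KO mice and 1 from wildtype mice, both bearing the CT-2A mouse glioma line, implanted in the brain 14 days before. Glut5 is the fructose transporter encoded by Slc2a5. Glut5 KO is the name in the sample labels, although the design text speaks of a knockdown. The sources used here do not give the strain, the age, the number of animals or the deleted exons. Both libraries held male cells (UMIs of Y-linked genes, none of Xist) and female cells (the reverse), so each pools more than 1 animal although the titles speak of a mouse. With 1 library per genotype, no difference between genotypes was tested. All intervals below are exact 95% intervals that cover counting error only, and they say nothing of the spread between mice.

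Slc2a5 had 1 UMI in the Glut5 KO library and 384 in the wildtype one. The Glut5 KO library held 12165 barcodes with a median of 6498 UMIs, and the wildtype library 11495 with a median of 8662. Of these, 12112 Glut5 KO and 11473 wildtype barcodes had at least 300 genes and under 10% mitochondrial UMIs. The libraries shared 188 barcode sequences. Markers placed cells in 13 types and left 1783 Glut5 KO (14.7%) and 2451 wildtype cells (21.4%) with markers of more than 1 type. A further 1928 Glut5 KO (15.9%) and 1088 wildtype cells (9.48%) had too few markers. The 9 types with at least 50 cells in both libraries were microglia (1197 Glut5 KO and 1477 wildtype cells), monocytes and macrophages (4890 and 4686), cDC1 (223 and 305), cDC2 (313 and 340), migratory DC (281 and 342), pDC (147 and 73), T cells (603 and 333), NK cells (310 and 273) and collagen-expressing cells (62 and 61). The gated types carried their defining genes, such as Tmem119 at 641 and 557 CPM (UMIs of the gene per 1000000 UMIs of the type) in Glut5 KO and wildtype microglia. The collagen-expressing cells had the leukocyte gene Ptprc (CD45) at only 4.73 and 2.75 CPM, which goes against the CD45+ selection.

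All heavy chain genes here and Tap1, Tap2 and Tapbp lie on chromosome 17 in the H2 complex (GRCm38, GENCODE M21). H2-K1 spans 33996017 to 34000347 on the minus strand. On the plus strand Tapbp spans 33915899 to 33929292, Tap1 34187553 to 34197225, Tap2 34203527 to 34216321, H2-D1 35262730 to 35267499, H2-Q4 35379617 to 35385290, H2-Q6 35424850 to 35430055 and H2-Q7 35439155 to 35443773. B2m lies on chromosome 2 (122147686 to 122153083) and Nlrc5 on chromosome 8 (94434356 to 94527272), both on the plus strand.

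The promoters of the 5 heavy chain genes share a short block. RefSeq promoters (GRCm38.p6, 250 bases before to 50 after the start) were matched for 8 of the 10 genes, all but Tap2 and Nlrc5. Each heavy chain promoter held the letters GGGATTNCC, a kappaB-type site, followed by GAANNGAAA on the other strand, an IRF-type site. The blocks are shown 5′ to 3′ with both sites in capitals, because all 5 of these promoters hold these letters and the other 3 do not. Other spellings of a kappaB-type site were not searched, so the other 3 promoters may hold one.
H2-K1: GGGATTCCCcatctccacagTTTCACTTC
H2-D1: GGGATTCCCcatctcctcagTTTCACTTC
H2-Q4: GGGATTTCCcatctccccagTTTCACTTC
H2-Q6: GGGATTCCCcatctccccagTTTCACTTC
H2-Q7: GGGATTCCCatctccccagTTTCACTTC
The block began 110 bases before the start in H2-K1, 170 in H2-D1, 173 in H2-Q4, 172 in H2-Q6 and 132 in H2-Q7. It was 28 bases long in H2-Q7 and 29 in the others. On either strand, the kappaB-type letters occurred in 0.938% of 32851 mouse promoters of the same length and the IRF-type letters in 7.52%. Also searched on both strands were GAAANNGAA (an ISRE core, in 8.56% of promoters), TGACG (the X2 type, in 20.8%) and CCAAT (in 37.4%). B2m had 1 match to GAAANNGAA, 2 to TGACG and 1 to CCAAT. Tap1 had 1 match each to TGACG and CCAAT, and Tapbp 2 to CCAAT. H2-Q6 was the heavy chain gene with no TGACG in its window. The IRF-type and ISRE letters can overlap, and did not in these windows. The 250 bases before the start are shown for a classical and a Qa-2 heavy chain, the light chain and the transporter, with all matches in capitals.
H2-K1, chr17:34000348-34000597, minus strand: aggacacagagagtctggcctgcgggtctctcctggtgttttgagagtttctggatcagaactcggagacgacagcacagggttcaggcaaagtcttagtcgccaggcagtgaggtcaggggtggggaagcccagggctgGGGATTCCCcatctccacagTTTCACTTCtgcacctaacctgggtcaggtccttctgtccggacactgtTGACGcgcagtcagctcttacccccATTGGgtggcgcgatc
H2-Q6, chr17:35424600-35424849, plus strand: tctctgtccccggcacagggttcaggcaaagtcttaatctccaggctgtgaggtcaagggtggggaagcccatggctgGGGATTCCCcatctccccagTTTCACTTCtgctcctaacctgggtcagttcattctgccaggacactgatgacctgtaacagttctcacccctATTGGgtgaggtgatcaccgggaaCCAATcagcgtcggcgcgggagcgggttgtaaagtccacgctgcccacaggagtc
B2m, chr2:122147437-122147686, plus strand: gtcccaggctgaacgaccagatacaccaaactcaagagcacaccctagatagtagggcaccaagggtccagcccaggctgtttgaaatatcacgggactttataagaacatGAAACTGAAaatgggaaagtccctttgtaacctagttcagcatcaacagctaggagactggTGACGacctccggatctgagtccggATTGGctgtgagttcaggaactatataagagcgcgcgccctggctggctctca
Tap1, chr17:34187306-34187555, plus strand: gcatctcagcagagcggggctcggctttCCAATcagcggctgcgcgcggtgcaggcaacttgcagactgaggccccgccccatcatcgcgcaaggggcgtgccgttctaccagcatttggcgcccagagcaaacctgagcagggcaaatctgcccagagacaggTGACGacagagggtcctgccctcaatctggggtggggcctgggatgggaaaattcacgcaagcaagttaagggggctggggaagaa
A match describes letters, not binding.

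The heavy chain genes share stretches of sequence with each other and with further genes. A molecule was counted from a read of 91 bases, and 259 of the 1995 distinct 91-base stretches of annotated H2-Q6 transcripts occurred letter for letter in another gene, most often H2-Q7. The share of such stretches was 13.6% for H2-Q7, 4.17% for H2-D1, 3.55% for H2-Q4, 1.46% for H2-K1 and 0.312% for Tapbp. It was 0 for B2m, Tap1, Tap2 and Nlrc5. The counts of H2-Q6 and H2-Q7 are therefore uncertain. H2 alleles differ between mouse strains, and reads of alleles other than those of the C57BL/6J reference could be counted differently.

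Across cell types, migratory DC, which carry antigen to lymph nodes, had the highest level of 7 of the 10 genes in both libraries. These were H2-K1, B2m, Tap1, Tap2, Nlrc5, H2-Q4 and H2-Q6. H2-K1 was at 4601 CPM in Glut5 KO and 4171 CPM in wildtype migratory DC. Tapbp was highest in pDC, at 495 CPM in Glut5 KO and 531 CPM in wildtype pDC. H2-Q7 was also highest in pDC, at 1114 CPM in Glut5 KO and 1012 CPM in wildtype pDC. H2-D1 was highest in Glut5 KO microglia (5159 CPM), whereas in the wildtype library pDC had the highest level (4548 CPM) and microglia the third highest (3841 CPM).

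Among the 8 leukocyte types compared, cDC2 were lowest for H2-K1 in both libraries, at 2339.8 CPM in Glut5 KO and 2099 CPM in wildtype cDC2. For H2-K1 the highest type exceeded the lowest 1.97-fold in Glut5 KO and 1.99-fold in wildtype cells. That range was wider for H2-Q6, at 3.94-fold in Glut5 KO and 4.74-fold in wildtype cells. For H2-Q7 it was 3.45-fold in Glut5 KO and 4.14-fold in wildtype cells. The Qa-2 genes thus varied more between leukocyte types than the classical H2-K1.

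In the Glut5 KO library cDC2 were the lowest leukocytes for Nlrc5 (59.3 CPM), H2-Q6 (139 CPM) and H2-Q7 (323 CPM). In the wildtype library monocytes and macrophages were the lowest for all 3, at 38.8 CPM for Nlrc5, 102 CPM for H2-Q6 and 244 CPM for H2-Q7. Many neighbours in these orders did not differ beyond counting error. In Glut5 KO cells the intervals of Nlrc5 overlapped at each step from migratory DC down to collagen-expressing cells. In wildtype cells migratory DC (110.3 CPM) stood clear of T cells (86.6 CPM) for Nlrc5.

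Collagen-expressing cells had the lowest level of 8 of the 10 genes, all but B2m and H2-Q4, among the 9 types in both libraries, but H2-Q4 was high there. H2-Q6 was at 11.8 CPM in Glut5 KO and 6.88 CPM in wildtype collagen-expressing cells, from 5 UMIs in each. H2-Q7 was at 33.1 CPM in Glut5 KO and 16.5 CPM in wildtype collagen-expressing cells. H2-Q4 was at 276 CPM in Glut5 KO and 199 CPM in wildtype collagen-expressing cells, the third highest level of the 9 types in each library. RNA free in the droplets can add UMIs to any cell, and its amount was not measured.

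The balance of the classical chains differed by cell type. H2-K1 made up 41.2% of the H2-K1 and H2-D1 UMIs in Glut5 KO microglia (40.9% to 41.5%) and 43.5% in wildtype microglia (43.2% to 43.8%). In T cells it made up 51.4% in Glut5 KO (50.9% to 51.9%) and 50.2% in wildtype cells (49.5% to 50.9%). Monocytes and macrophages lay between, at 46.3% in Glut5 KO and 44.8% in wildtype cells.

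**Figure D1:**
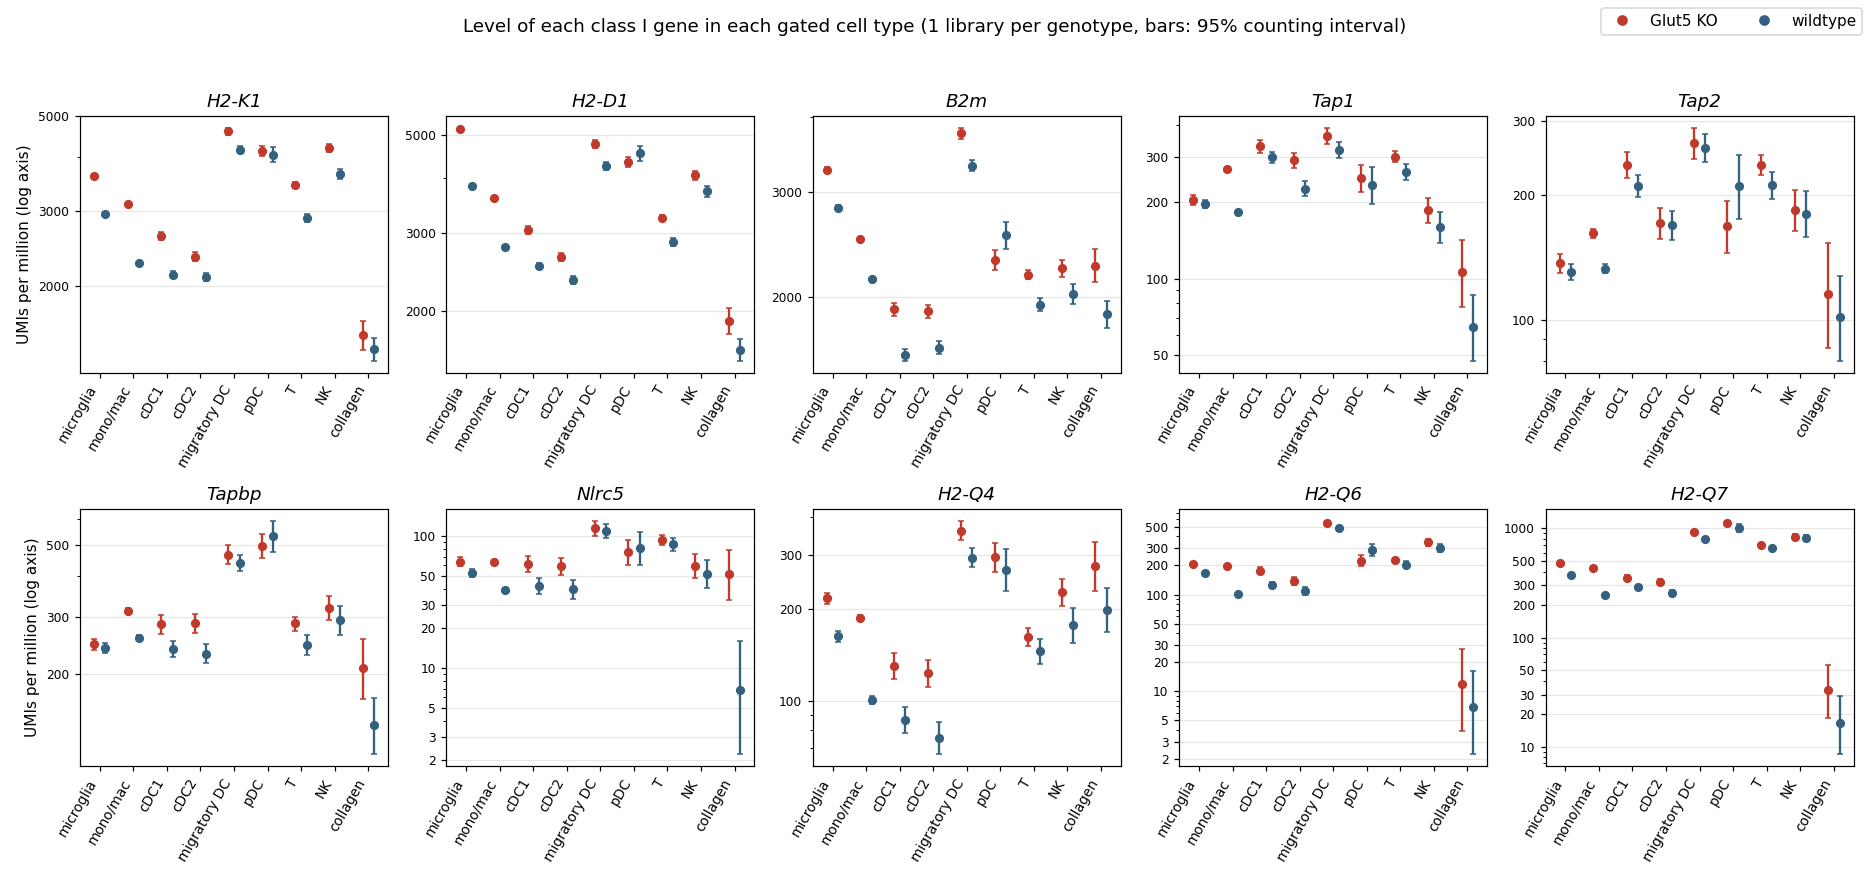
CPM on a log axis for each of the 10 genes in 9 gated cell types, with Glut5 KO in red and wildtype in blue and bars for the 95% counting interval. Migratory DC and pDC stand high for most genes, and collagen-expressing cells are at 11.8 and 6.88 CPM for H2-Q6 but at 276 and 199 CPM for H2-Q4.

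In monocytes and macrophages all 10 genes were higher in Glut5 KO than in wildtype cells, and no counting interval reached a ratio of 1. Of all genes with at least 500 UMIs there, 38.1% were higher in Glut5 KO cells. How many of those had an interval clear of 1 was not counted. Of the classical heavy chains, H2-K1 was at 3109.8 CPM in Glut5 KO and 2265 CPM in wildtype cells, a log2 ratio of Glut5 KO over wildtype of 0.46 (0.45 to 0.47). H2-D1 was at 3610.1 CPM in Glut5 KO and 2793 CPM in wildtype cells, a log2 ratio of 0.37 (0.36 to 0.38). The light chain B2m had the narrowest difference, 2498 CPM in Glut5 KO and 2139 CPM in wildtype cells (log2 ratio 0.22, 0.21 to 0.24). Each of the 5 heavy chain genes thus had a wider ratio than the light chain that all of them pair with.

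The transport and loading genes also differed. Tap1 was at 269 CPM in Glut5 KO and 182 CPM in wildtype cells, a log2 ratio of 0.56 (0.52 to 0.61) and a fold of 1.48. Its partner Tap2 was at 162 CPM in Glut5 KO and 133 CPM in wildtype cells (log2 ratio 0.28, 0.23 to 0.33). Tapasin (Tapbp) was at 313 CPM in Glut5 KO and 258 CPM in wildtype cells (log2 ratio 0.28, 0.24 to 0.32). The interval of Tap1 lay above that of Tap2, so the TAP subunits did not differ to the same degree.

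The transactivator and the Q genes had the widest ratios. Nlrc5 was at 63.2 CPM in Glut5 KO and 38.8 CPM in wildtype cells (log2 ratio 0.70, 0.61 to 0.79). H2-Q4 was at 187 CPM in Glut5 KO and 100.5 CPM in wildtype cells (log2 ratio 0.89, 0.84 to 0.95). H2-Q6 had the widest ratio of the 10, at 198 CPM in Glut5 KO and 102 CPM in wildtype cells (log2 ratio 0.96, 0.90 to 1.01). H2-Q7, which shares sequence with H2-Q6, was at 430.4 CPM in Glut5 KO and 244 CPM in wildtype cells (log2 ratio 0.82, 0.78 to 0.85).

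Nlrc5 and the 3 Q genes were at least 1.5-fold higher in Glut5 KO monocytes and macrophages and no member was at least 1.5-fold lower. Of the 13532 genes with at least 20 UMIs in these cells, 6.89% were at least 1.5-fold higher and 5.42% at least 1.5-fold lower. Of the 8643 genes with at least 500 UMIs, which all 10 members had, 2.52% were at least 1.5-fold higher. The members' median log2 ratio was 0.51, beside -0.05 over all genes with at least 20 UMIs. In bulk sums such as these, a change in the mixture of cells and a change within cells cannot be told apart.

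The gated cells were not the same mixture in both libraries. Cells high in C1qa, C1qb, C1qc, Apoe and Gpnmb, genes of mature macrophages, were 37.4% of Glut5 KO and 48.3% of wildtype monocytes and macrophages. Cells high in Ly6c2, Chil3 and Plac8, genes of recently arrived monocytes, were 45.1% and 39.1%. These are ends of a range cut from a score rather than types, with 854 Glut5 KO and 590 wildtype cells in between. All 10 members were lower at the C1q/Apoe-high end than at the Ly6c2/Plac8-high end in both libraries.

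At the C1q/Apoe-high end all 10 genes were higher in Glut5 KO cells, where 41.5% of all genes were. Nlrc5 and the 3 Q genes were at least 1.5-fold higher, where 5.7% of all genes were. H2-Q6 was at 120.3 CPM in Glut5 KO and 54.0 CPM in wildtype C1q/Apoe-high cells, a log2 ratio of 1.16 (1.06 to 1.25). H2-K1 was at 2866 CPM in Glut5 KO and 2004 CPM in wildtype C1q/Apoe-high cells (log2 ratio 0.52, 0.50 to 0.53). At the Ly6c2/Plac8-high end the 10 ratios were smaller and above 0, where 49.5% of all genes were. H2-Q4 was the member past 1.5-fold there, at 242 CPM in Glut5 KO and 155 CPM in wildtype cells (log2 ratio 0.64, 0.56 to 0.73), where 6.67% of all genes were. H2-Q6 was at 282 CPM in Glut5 KO and 193 CPM in wildtype Ly6c2/Plac8-high cells (log2 ratio 0.54, 0.47 to 0.62). For 8 members, all but Tap2 and Tapbp, the interval of the ratio at the C1q/Apoe-high end lay above that at the other end. The share of all genes for which that was so was not counted.

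Dividing cells made up 11.5% of Glut5 KO and 17.2% of wildtype monocytes and macrophages. Among dividing cells Nlrc5, the 3 Q genes and Tap1 were at least 1.5-fold higher, where 5.41% of all genes were. Among the rest it was Nlrc5 and the 3 Q genes, where 7.03% of all genes were. Markers of other cells also differed within the gate, and their part in the class I ratios was not tested. The 5 T cell markers summed to 10.1 CPM in Glut5 KO and 2.14 CPM in wildtype cells, and the 5 NK cell markers to 4.47 and 2.28 CPM. The 4 plasma cell markers summed to 31.8 and 4.79 CPM, and the 7 microglial markers to 219 and 298 CPM. The gate's own 11 markers summed to 4904 and 4624 CPM, and none of these markers was at 0 in either library. They did not move together. Ly6c2 was at 1507 CPM in Glut5 KO and 919 CPM in wildtype cells, whereas Chil3, named above with it, was at 37.4 and 108 CPM, Fn1 at 83.9 and 177 CPM and Mrc1 at 29.1 and 68.8 CPM.

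**Figure D2:**
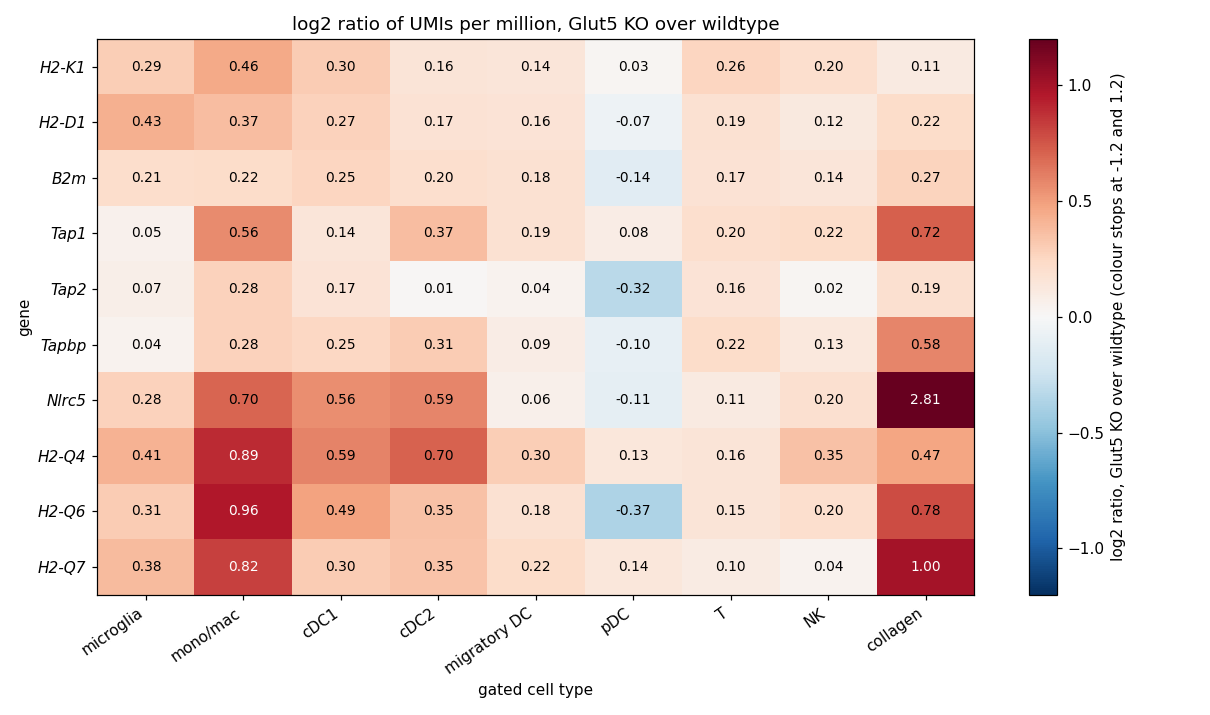
log2 ratio of Glut5 KO over wildtype CPM for the 10 genes in 9 cell types, with red for higher in Glut5 KO. Monocytes and macrophages are above 0 for every gene (0.22 to 0.96), pDC are mixed, and H2-Q6 in collagen-expressing cells rests on 5 UMIs in each library.

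Both sexes showed the difference in monocytes and macrophages. Each library was split into female and male cells. This gave 1435 female and 1137 male Glut5 KO cells and 1141 female and 1566 male wildtype cells. Cells with neither sex's genes (5555 Glut5 KO and 4520 wildtype cells of all types) or both (438 and 442) were left out. The female and male pools were deeper, with medians of 9639 and 8444 UMIs in Glut5 KO cells against 7351 in the whole gate. In wildtype cells the medians were 9393 and 10145 against 7980. C1q/Apoe-high cells were 49.3% and 41.3% of the Glut5 KO pools and 57.9% and 57.1% of the wildtype pools. For all 10 genes both Glut5 KO pools lay above both wildtype pools, where that was so of 15.7% of all genes. H2-K1 was at 2987 CPM in female and 3138 CPM in male Glut5 KO cells, against 2127 CPM in female and 2199 CPM in male wildtype cells. H2-Q7 was at 353 CPM in female and 457 CPM in male Glut5 KO cells, against 191 CPM in female and 234 CPM in male wildtype cells. The Glut5 KO pools of these heavy chains did not overlap the wildtype pools.

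Nlrc5 was at 62.4 CPM in female and 60.2 CPM in male Glut5 KO cells, against 32.9 CPM in female and 40.3 CPM in male wildtype cells. Tap1 was at 273 CPM in female and 245 CPM in male Glut5 KO cells, against 157 CPM in female and 179 CPM in male wildtype cells. For both genes, too, the sexes of a library were closer to each other than to either pool of the other library. The pools of a library share its preparation and sequencing, so they are not replicates of a genotype. Dividing cells were 21.8% of female and 9.59% of male Glut5 KO cells, against 21.9% of female and 21.5% of male wildtype cells.

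Per cell, the upper and lower ends of the distribution differed along with its middle. After each cell was thinned to 1000 UMIs, 4643 Glut5 KO monocytes and macrophages had a median of 11 UMIs of the 10 genes together (quartiles 8 and 14). The 4662 wildtype cells had a median of 8 (quartiles 6 and 12). The 10th percentile was 5 UMIs in Glut5 KO and 4 in wildtype cells, and the 90th percentile 18 and 15 UMIs. Cells under 1000 UMIs, left out of this count, were 247 Glut5 KO and 24 wildtype cells.

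**Figure D3:**
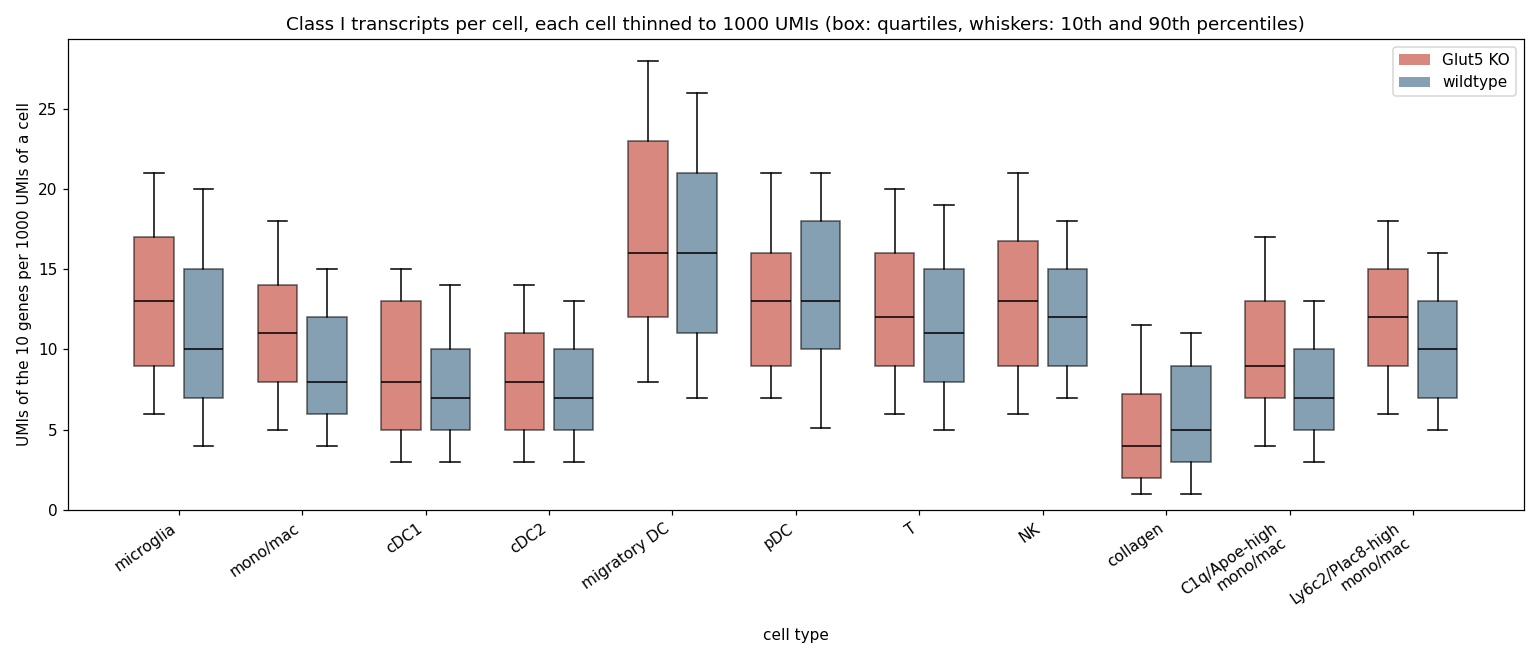
UMIs of the 10 genes together per cell after thinning each cell to 1000 UMIs, with boxes for the quartiles and whiskers for the 10th and 90th percentiles, Glut5 KO in red beside wildtype in blue. Medians are 13 and 10 UMIs in Glut5 KO and wildtype microglia and 11 and 8 in monocytes and macrophages, while migratory DC have a median of 16 in both.

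Microglia, the resident phagocytes of the brain, differed less and unevenly. The heavy chains, B2m and Nlrc5 were higher in Glut5 KO microglia, and the intervals of the transport and loading genes included a ratio of 1. H2-K1 was at 3616 CPM in Glut5 KO and 2953 CPM in wildtype microglia (log2 ratio 0.29, 0.27 to 0.31). H2-D1 was at 5159 CPM in Glut5 KO and 3841 CPM in wildtype microglia (log2 ratio 0.43, 0.41 to 0.44). B2m was at 3264 CPM in Glut5 KO and 2823 CPM in wildtype microglia (log2 ratio 0.21, 0.19 to 0.23). Of the classical pair, H2-D1 had the wider ratio in microglia and H2-K1 the wider one in monocytes and macrophages.

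Tap1 was at 204 CPM in Glut5 KO and 196 CPM in wildtype microglia (log2 ratio 0.05, -0.03 to 0.13). Tap2 was at 137 CPM in Glut5 KO and 130.5 CPM in wildtype microglia (log2 ratio 0.07, -0.03 to 0.17). Tapbp was at 247 CPM in Glut5 KO and 240.1 CPM in wildtype microglia (log2 ratio 0.04, -0.03 to 0.12). These 3 intervals leave room for ratios up to 0.17 on the log2 scale.

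Nlrc5 was at 64.2 CPM in Glut5 KO and 52.9 CPM in wildtype microglia (log2 ratio 0.28, 0.13 to 0.43). Among the Q genes H2-Q4 was at 217 CPM in Glut5 KO and 163 CPM in wildtype microglia (log2 ratio 0.41, 0.33 to 0.50). H2-Q6 and H2-Q7 had log2 ratios of 0.31 (0.22 to 0.39) and 0.38 (0.33 to 0.44). No member was at least 1.5-fold higher or lower, where 3.46% of 12597 genes were at least 1.5-fold higher and 13.6% at least 1.5-fold lower. The members' median log2 ratio was 0.29, beside -0.10 over all genes. The interval of the ratio lay above that in microglia, without overlap, for 8 members in monocytes and macrophages, below it for H2-D1, and overlapped it for B2m. The share of all genes with such gaps between these types was not counted.

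The sexes parted in wildtype microglia. In the Glut5 KO library (441 female and 234 male cells) the log2 ratios of female over male ranged from -0.18 for H2-D1 to 0.11 for H2-Q7. In the wildtype library (527 female and 340 male cells) all 10 genes were lower in female cells, by log2 ratios from -0.29 for H2-Q4 to -1.39 for Nlrc5. The share of all genes lower in female cells was not counted. The median depth was 11068 UMIs in female and 13501 in male wildtype microglia, against 10368 and 11105.5 in Glut5 KO ones. Nlrc5 was at 67.0 CPM in female and 73.5 CPM in male Glut5 KO cells, against 32.7 CPM in female and 86.0 CPM in male wildtype cells. Tap1 was at 200.5 CPM in female and 225 CPM in male Glut5 KO cells, against 135 CPM in female and 293 CPM in male wildtype cells. H2-Q7 was at 504 CPM in female and 467 CPM in male Glut5 KO cells, against 244 CPM in female and 527 CPM in male wildtype cells. For these 3 genes the wildtype pools lay on either side of the Glut5 KO pools.

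Both Glut5 KO pools lay above both wildtype pools for H2-D1, H2-Q4 and H2-Q6, where that was so of 11.4% of all genes. H2-D1 was at 4921 CPM in female and 5576 CPM in male Glut5 KO cells, against 3178 CPM in female and 4631 CPM in male wildtype cells. In female cells all 10 log2 ratios of Glut5 KO over wildtype were above 0, from 0.30 for Tap2 to 1.05 for H2-Q7. There 5 members, H2-K1, H2-D1, Nlrc5, H2-Q6 and H2-Q7, were at least 1.5-fold higher, where 3.44% of all genes were. In male cells the ratios ran from -0.38 for Tap1 to 0.27 for H2-D1. Of the 10 intervals in male cells, 3 lay above 0 (H2-D1, B2m and H2-Q4) and 4 below it (H2-K1, Tap1, Tapbp and H2-Q7). How many of all genes had intervals clear of 0 in male microglia was not counted.

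Dividing cells were 16.6% of female and 14.1% of male Glut5 KO microglia, against 27.9% of female and 31.5% of male wildtype microglia. Among microglia that were not dividing, Tap1 had a log2 ratio of 0.54 (0.37 to 0.71) in female and -0.45 (-0.61 to -0.29) in male cells. Without regard to sex, no member was past 1.5-fold higher in non-dividing microglia, where 3.9% of all genes were. There 8 of the 10 members were above 0, where 43.8% of all genes were. Tap1 and Tapbp were below 0 in these cells (log2 ratios -0.005 and -0.06), with intervals that included 0. The 5 T cell markers summed to 6.79 CPM in Glut5 KO and 1.85 CPM in wildtype microglia, and the 11 monocyte and macrophage markers to 442 and 399 CPM. The 4 collagen-expressing cell markers summed to 30.7 and 58.0 CPM, and the 6 migratory DC markers to 146 and 174 CPM. Of the gate's own markers, P2ry12 was at 403 CPM in Glut5 KO and 292 CPM in wildtype microglia and Gpr34 at 186 and 140.5 CPM. The part of these differences in the class I ratios was not tested. How many mice stand behind each pool is not given, and the part of single animals was not tested.

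**Figure D4:**
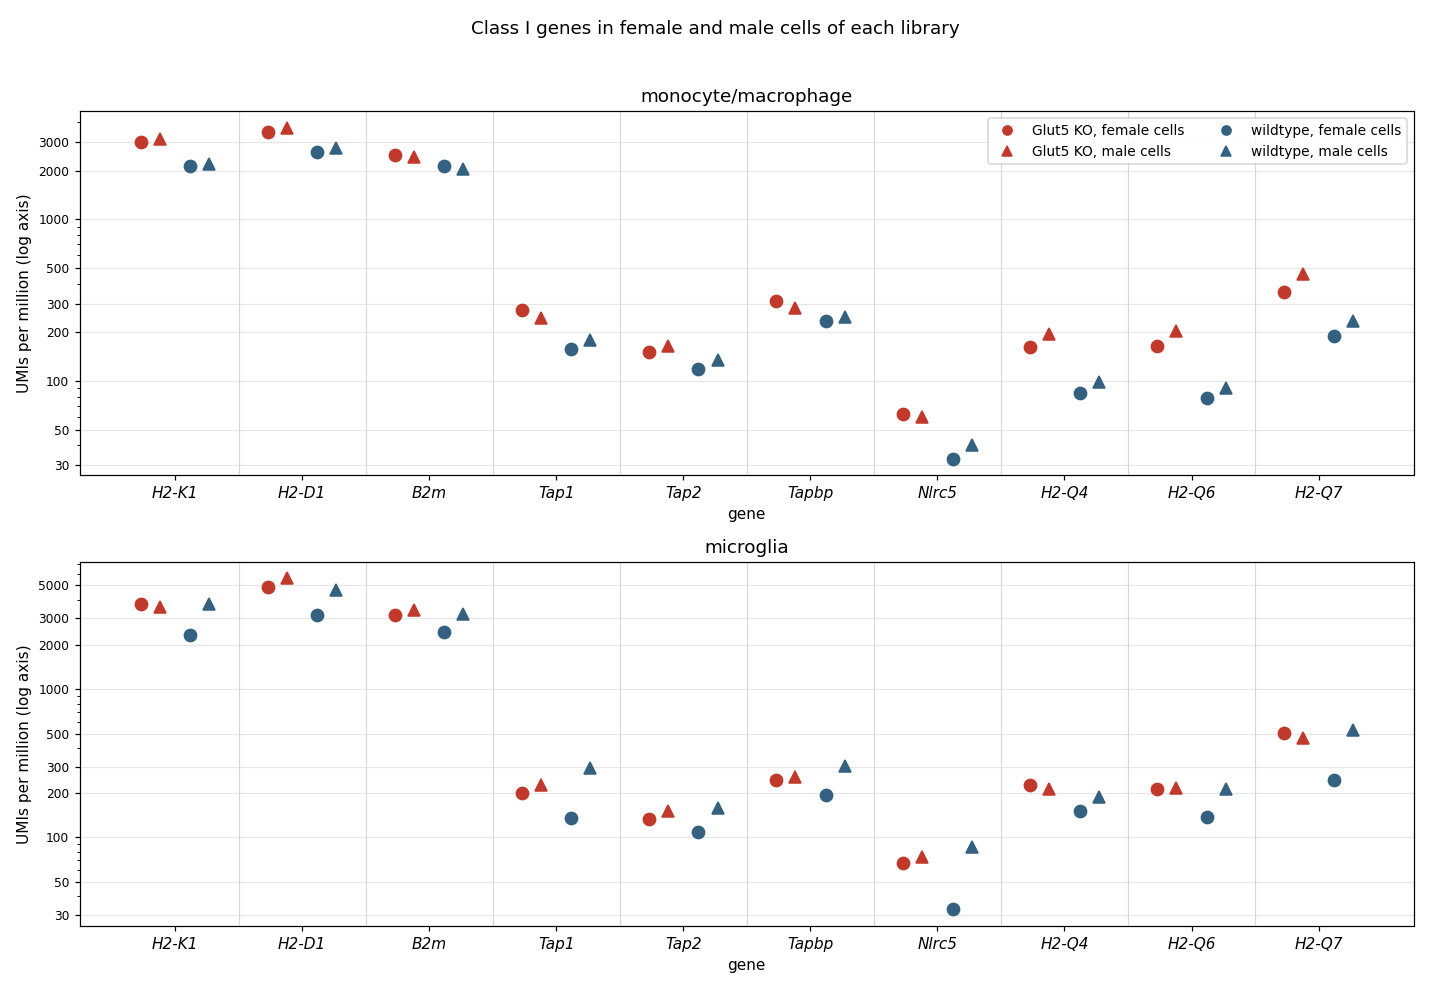
CPM (log axis) of each gene in female and male cells of the Glut5 KO library (red) and the wildtype library (blue), for monocytes and macrophages and for microglia. In monocytes and macrophages both Glut5 KO points lie above both wildtype points for every gene, while in microglia the wildtype points are spread apart, as for Nlrc5 at 32.7 and 86.0 CPM.

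The conventional dendritic cells differed in the same direction. In cDC1, the subset best known for presenting tumour antigen on class I, all 10 intervals lay above a ratio of 1. Of all genes, 53.9% were higher in Glut5 KO cDC1, and the share with such intervals was not counted. H2-Q4 was the member past 1.5-fold there, at 131 CPM in Glut5 KO and 86.7 CPM in wildtype cDC1 (log2 ratio 0.59, 0.39 to 0.79), where 6.44% of all genes were. H2-K1 was at 2621 CPM in Glut5 KO and 2123 CPM in wildtype cDC1 (log2 ratio 0.30, 0.26 to 0.35). In cDC2 the members past 1.5-fold were H2-Q4 (log2 ratio 0.70, 0.48 to 0.93) and Nlrc5 (0.59, 0.27 to 0.91), where 6.37% of all genes were. Tap2 was at 171 CPM in Glut5 KO and 169 CPM in wildtype cDC2 (log2 ratio 0.01, -0.15 to 0.18), the 1 interval of 10 in cDC2 that included 0. By sex, the members' median log2 ratio in cDC1 was 0.50 in female and 0.15 in male cells, with 10 and 5 intervals above 0. In cDC2 it was 0.31 in female and 0.35 in male cells, with 7 and 9 intervals above 0. Shares of all genes with such intervals were not counted by sex.

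In migratory DC the 10 log2 ratios were between 0.04 and 0.30 and none was past 1.5-fold, where 8.27% of all genes were higher by that much. By sex, the members' median there was 0.07 in female and -0.0003 in male cells, with 2 and 1 of the 10 intervals above 0. Here too the share of all genes with such intervals was not counted. H2-Q6 was at 546 CPM in Glut5 KO and 483 CPM in wildtype migratory DC (log2 ratio 0.18, 0.06 to 0.30). In pDC 6 of the 10 ratios were below 0, where 51.5% of all genes were above 0. H2-Q6 was at 225 CPM in Glut5 KO and 289.8 CPM in wildtype pDC (log2 ratio -0.37, -0.65 to -0.08). B2m was at 2306 CPM in Glut5 KO and 2535 CPM in wildtype pDC (log2 ratio -0.14, -0.23 to -0.04). The other 8 intervals included 0, and no member was past 1.5-fold, where 10.6% of all genes were higher and 9.03% lower by that much. Within the pDC gate the 6 migratory DC markers summed to 104 CPM in Glut5 KO and 311 CPM in wildtype cells. The 5 neutrophil markers summed to 150.4 CPM in Glut5 KO cells and were all at 0 in wildtype cells. The 11 monocyte and macrophage markers summed to 5414 and 4614 CPM, beside 4904 and 4624 CPM in the monocyte and macrophage gate itself. That sum is therefore no measure of admixed cells in the pDC gate. What part other cells had in the pDC ratios was not tested.

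In lymphocytes the ratios were small. In T cells the 10 log2 ratios ranged from 0.10 to 0.26, with H2-K1 at 3445 CPM in Glut5 KO and 2886 CPM in wildtype cells (log2 ratio 0.26, 0.22 to 0.29). The gate held 180 Glut5 KO and 118 wildtype CD8 T cells, 120 and 54 CD4 T cells and 99 and 30 regulatory T cells. The log2 ratio of H2-K1 was 0.09 in CD4 T cells and 0.20 in regulatory T cells. What part the mixture had in the T cell ratios was not tested. By sex, the members' median in T cells was 0.18 in female and 0.19 in male cells. In CD8 T cells, whose receptors read class I, H2-K1 was at 2851 CPM in Glut5 KO and 2789 CPM in wildtype cells (log2 ratio 0.03, -0.03 to 0.10). H2-D1 had the 1 interval of 10 there that lay above 0 (log2 ratio 0.14, 0.08 to 0.21), and the other 9 included 0. In CD4 T cells 3 intervals lay above 0, and that of H2-Q7 lay below it (log2 ratio -0.21, -0.40 to -0.01). In neither subset was the share of all genes with such intervals counted. In NK cells, which sense the loss of class I, H2-K1 was at 4207 CPM in Glut5 KO and 3651 CPM in wildtype cells (log2 ratio 0.20, 0.15 to 0.26). No member was at least 1.5-fold higher in T cells, NK cells, CD8 T cells or CD4 T cells, where 7.25%, 9.19%, 9.36% and 14.5% of all genes were.

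In collagen-expressing cells Nlrc5 had 22 UMIs in Glut5 KO and 5 in wildtype cells (log2 ratio 2.81, 1.48 to 4.68). Tap1 was at 106 CPM in Glut5 KO and 64.6 CPM in wildtype cells (log2 ratio 0.72, 0.10 to 1.34). With H2-Q7 (14 and 12 UMIs) these were the 3 of 9 members with at least 20 UMIs that were past 1.5-fold, where 15.6% of all genes were. H2-K1 was at 1531 CPM in Glut5 KO and 1419 CPM in wildtype cells (log2 ratio 0.11, -0.03 to 0.25). The signs of the H2-K1, H2-D1 and B2m ratios in these cells depended on the processing, as given below.

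Other genes of the pathway did not all share the members' difference in monocytes and macrophages. Among the non-classical class I genes, 5 of the 8 measured, H2-T22, H2-T23, H2-T24, H2-Q2 and H2-Q10, were at least 1.5-fold higher in Glut5 KO cells and none lower, where 6.89% of all genes were higher by that much. The list median log2 ratio was 0.63. H2-Q10 had 29 UMIs in Glut5 KO and 21 in wildtype cells and an interval that included 0. It was the gene that shared most 91-base stretches with H2-Q7 (6.63% of its stretches) and H2-K1 (1.44%), and H2-T23 shared some with H2-D1, so the counts of both are uncertain. H2-T23, which encodes Qa-1, a ligand of NK cell receptors, was at 902 CPM in Glut5 KO and 576 CPM in wildtype cells (log2 ratio 0.65, 0.63 to 0.67). H2-T24 was at 42.3 CPM in Glut5 KO and 25.4 CPM in wildtype cells (log2 ratio 0.73, 0.62 to 0.84). H2-Q2 had 72 UMIs in Glut5 KO and 30 in wildtype cells (log2 ratio 1.40, 0.78 to 2.08). At the lower end Mr1, which presents vitamin metabolites, had a log2 ratio of 0.15 (-0.24 to 0.53), and Cd1d1, which presents lipids, of 0.25 (-0.02 to 0.53). H2-T22, H2-T23 and H2-Q10 are named after their values were seen.

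The immunoproteasome, which cuts peptides suited to class I, differed less. None of its 5 genes, PA28 included, was past 1.5-fold and the list median was 0.19. Psmb9, the neighbour of Tap1, was at 465 CPM in Glut5 KO and 357 CPM in wildtype cells (log2 ratio 0.38, 0.35 to 0.41). Psmb8 had a log2 ratio of 0.25, and the PA28 subunits Psme2 and Psme1 of 0.18 and 0.13. The 3 constitutive catalytic subunits were below 0, Psmb6 at -0.13, Psmb7 at -0.15 and Psmb5 at -0.30. Among 5 trimming and loading genes, none past 1.5-fold, Tapbpl, the tapasin-related peptide editor, was highest at 49.8 CPM in Glut5 KO and 34.7 CPM in wildtype cells (log2 ratio 0.52, 0.42 to 0.62). The peptide trimmer Erap1 was at -0.03, the disulfide isomerase Pdia3 at -0.15 and the chaperone Calr at -0.20.

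Of 10 transcription genes 2 were at least 1.5-fold higher in Glut5 KO monocytes and macrophages and none lower, where 6.89% of all genes were higher and 5.42% lower by that much, with a list median of 0.10. Irf1, an interferon-induced activator of class I genes, was at 279 CPM in Glut5 KO and 169 CPM in wildtype cells (log2 ratio 0.72, 0.68 to 0.77). Ciita, the class II counterpart of Nlrc5, was at 53.0 CPM in Glut5 KO and 26.7 CPM in wildtype cells (log2 ratio 0.99, 0.88 to 1.09). Rfxap and Rfxank, subunits of the RFX complex at class I and class II promoters, had log2 ratios of -0.12 and -0.11.

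In the interferon list the receptor chains Ifnar1 and Ifnar2 had log2 ratios of 0.08 and 0.03 and Ifngr1 of -0.22. The ligand Ifnb1 had 50 UMIs in Glut5 KO and 97 in wildtype monocytes and macrophages (log2 ratio -0.80, -1.33 to -0.30). Ifng, named after its value was seen, had 24 UMIs in Glut5 KO and 6 in wildtype cells of that gate. In T cells, a main source of the cytokine, Ifng was lower in Glut5 KO cells, at 142 CPM in Glut5 KO and 338 CPM in wildtype T cells (log2 ratio -1.24, -1.38 to -1.11). In NK cells it was at 65.2 CPM in Glut5 KO and 37.0 CPM in wildtype cells (log2 ratio 0.81, 0.32 to 1.34).

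In microglia of both sexes together the 5 immunoproteasome and PA28 genes and the 3 constitutive subunits lay below 0 while the members lay above it. The immunoproteasome and PA28 median of -0.14 was close to the -0.10 over all genes, and the constitutive median was -0.37. Of the 5 immunoproteasome and PA28 genes, Psme1 and Psmb8 were highest at -0.10 and -0.13, and Psmb10 and Psme2 lowest at -0.25 and -0.26. The constitutive subunits Psmb6, Psmb7 and Psmb5 were at -0.34, -0.37 and -0.40.

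The immunoproteasome genes, like Tap1, had ratios of opposite sign in female and male microglia, and the constitutive subunits did not. Psmb9 was at 277 CPM in female and 293 CPM in male Glut5 KO cells, against 214 CPM in female and 423 CPM in male wildtype cells. The Glut5 KO over wildtype log2 ratio of Psmb9 was 0.37 (0.27 to 0.48) in female and -0.53 (-0.65 to -0.41) in male cells. All 5 immunoproteasome and PA28 intervals lay above 0 in female cells, with ratios from 0.16 for Psme2 to 0.37 for Psmb9. All 5 lay below 0 in male cells, with ratios from -0.66 for Psme2 to -0.37 for Psme1. The ratios of the 3 constitutive subunits were below 0 in both sexes, from -0.40 for Psmb7 to -0.19 for Psmb6 in female and from -0.50 for Psmb5 to -0.44 for Psmb7 in male cells. The median over all genes was -0.16 in female and -0.07 in male microglia.

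Of the 10 transcription genes, Irf2, an interferon regulatory factor, was highest in microglia of both sexes together, at 86.4 CPM in Glut5 KO and 75.3 CPM in wildtype microglia (log2 ratio 0.20, 0.07 to 0.33), followed by Nfyb, a subunit of the CCAAT-binding factor, at 0.05. Rfxap (-0.52) and Nfyc (-0.34), another subunit of that factor, were the lowest. Irf1, named after its value was seen, was at 208 CPM in Glut5 KO and 223 CPM in wildtype microglia (log2 ratio -0.10, -0.18 to -0.02), an interval below that in monocytes and macrophages.

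The interferon-gamma receptor chain Ifngr1 had a log2 ratio of 0.54 (0.47 to 0.61) in microglia, with Ifnar2 at 0.20, Ifnar1 at 0.19 and Ifngr2 at 0.12. Among trimming and loading genes Canx was at 0.14, Tapbpl at 0.12, Pdia3 at -0.12 and Calr at -0.27. Of the non-classical genes H2-T24 and H2-M3 were highest at 0.29 and 0.25, and Mr1 and Cd1d1 lowest at 0.10 and -0.41.

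**Figure D5:**
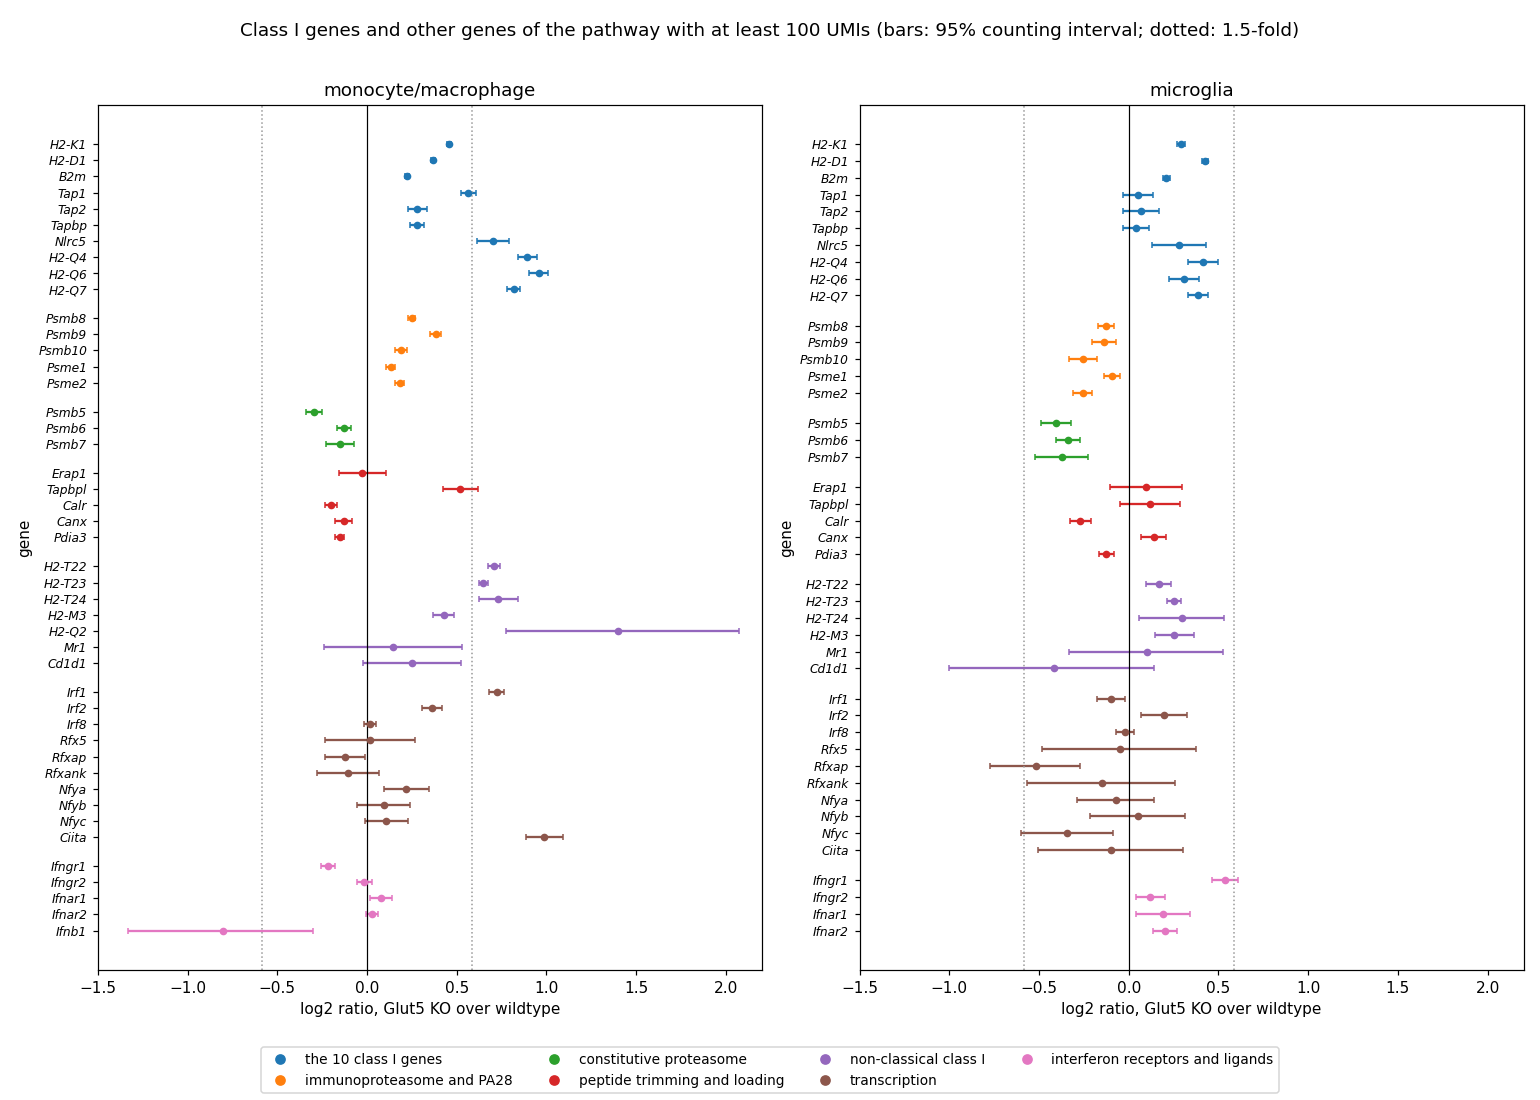
log2 ratio of Glut5 KO over wildtype for the 10 class I genes and the lists of pathway genes, in monocytes and macrophages and in microglia, with bars for the 95% counting interval and dotted lines at 1.5-fold. In monocytes and macrophages the Q genes, Nlrc5, the H2-T genes, Irf1 and Ciita lie beyond 1.5-fold higher, while the constitutive proteasome lies below 0.

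The members did not all follow the same pattern over cell types. Levels were compared as log2(CPM + 1) over 20 points, the gated types of each library with at least 50 cells. Pearson's r with the mean of the standardised members ran from 0.55 for H2-Q4 and 0.64 for B2m to 0.95 for H2-K1. Among pairs of members r was highest for H2-Q6 and H2-Q7 at 0.97, which share sequence, and lowest for H2-Q4 and Tap1 at 0.07. The 5 genes outside the set most like the members' mean were Ghitm (r = 0.93), Apobec3 (0.91), Tapbpl (0.91), Dcaf11 (0.90) and Samsn1 (0.90). Apobec3, a restriction factor against retroviruses, ranged from 42.6 to 417 CPM and Tapbpl from 19.3 to 161 CPM over these points. The points share 2 libraries and differ in depth, so these values are a description.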

How the data were processed

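The deposited matrices hold raw counts of UMIs per gene and cell barcode, per the file headers. Cells were selected with CD45 beads and 16000 were loaded, per the labels' protocols. The submitters' processing notes name Cell Ranger 3.1.0 and the mm10 build, whereas the matrix header carries 7.0.1. Intron counting and the annotation are not stated in the sources used here.

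Barcodes with under 300 genes or at least 10% mitochondrial UMIs were removed. A cell was a candidate for a type with at least 2 of its markers and 3 marker UMIs. Types other than microglia and monocyte/macrophage needed a marker score of at least 0.4 and 1.5 times every other score, and those 2 needed 2 times the other's level. Lymphoid, pDC, granulocyte and collagen-expressing cells with 100 or more UMIs of C1qa, C1qb, C1qc and Apoe per 10000 were set aside as mixed. No called doublet was removed in the values reported. Dividing cells had at least 2 UMIs of Mki67, Top2a, Birc5, Cdk1 and Ube2c, and male cells UMIs of Ddx3y, Uty, Kdm5d or Eif2s3y and none of Xist.

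UMIs were summed per type and library and divided by the type's total, as CPM. A log2 ratio has 0.5 added to each count. CPM have exact Poisson intervals, ratios conditional exact binomial ones and shares Clopper-Pearson ones. Background shares count genes with at least 20 UMIs in both libraries together, and a minimum of 500 was added after seeing the data. They were not computed for counts of intervals clear of 0. The scripts were tested on simulated data. Python 3.11.15, numpy 2.4.6, scipy 1.17.1, pandas 2.3.3 and scanpy 1.11.5 were used.

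The members, pathway lists and comparisons were chosen with earlier results of these data known, the gate thresholds after marker counts were seen, and the motif letters with the promoters in view. Named are all 10 members, per pathway list the 2 highest and 2 lowest ratios among genes with at least 100 UMIs, and the 5 genes most like the members among those with at least 50 CPM in a type. 1 gene of the transcription list is not reported here and was left out of its count and median. Alternatives changed the scaling, barcode filter, doublet removal, gating, averaging, depth, sex, dividing cells, added count and the minimum of UMIs. The last cannot change a member's ratio.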

Additional observations from a re-analysis of the deposited data

Results flagged for a closer look

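In microglia the ratio of Glut5 KO over wildtype pointed in opposite directions in female and male cells for 4 members, with no counting interval reaching 0. Only the members and the proteasome genes were looked at in this way, and the share of all genes was not counted. The log2 ratio in female cells minus that in male cells was 0.76 for H2-K1 (0.69 in female and -0.08 in male cells). It was 1.22 for H2-Q7 (1.05 and -0.18), 0.95 for Tap1 (0.57 and -0.38) and 0.59 for Tapbp (0.35 and -0.24). The 5 immunoproteasome and PA28 genes did the same in microglia. The difference was 0.90 for Psmb9, 0.77 for Psmb8, 0.79 for Psmb10, 0.70 for Psme1 and 0.82 for Psme2. In NK cells the signs were the other way round for H2-K1, a difference of -0.62 (-0.12 in female and 0.50 in male cells, from 98 female and 55 male Glut5 KO and 36 female and 89 male wildtype cells). Between cell types, the log2 ratio of B2m in collagen-expressing cells minus that in pDC was 0.41 (0.27 and -0.14). The B2m ratio in collagen-expressing cells was as low as -0.12 under other processing. The log2 ratio of H2-Q6 in monocytes and macrophages minus that in pDC was 1.33 (0.96 and -0.37). With 1 library per genotype none of these differences was tested.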

How the results depend on the processing

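No paired analysis was possible because there was 1 library per genotype. In monocytes and macrophages the median log2 ratio of the 10 members was 0.51, and it was 0.56 when centred on the median gene, 0.58 with Leiden clusters in place of gates, 0.42 as a mean of per-cell CPM, 0.41 after thinning to 1000 UMIs, 0.48 in male cells, 0.64 in female cells and 0.45 without dividing cells. All 130 member values in this type, over 13 settings, were above 0 (0.14 to 1.18). In every type the setting without a minimum of UMIs repeats the main values, because that minimum does not enter a member's ratio. In microglia the median was 0.29, and it was 0.39 when centred, -0.071 in male cells, 0.61 in female cells and 0.20 without dividing cells. There 118 of 130 values were above 0, and in female cells 5 members were at least 1.5-fold higher, where 3.44% of all genes were, against 0 members in all microglia. In collagen-expressing cells H2-Q6 reversed to -0.62 as a mean of per-cell CPM and to -2.25 after thinning, and H2-Q7 to -1.51 after thinning, from few UMIs. H2-K1, H2-D1 and B2m, with more UMIs, fell to -0.37, -0.31 and -0.12 at the lowest, each above 0 in 9 of 11 settings. H2-Q4 and Tapbp fell to -0.14 and -0.13, each above 0 in 10 of 11. After thinning, the 10 genes had a median of 4 UMIs per cell in Glut5 KO and 5 in wildtype collagen-expressing cells. Female pDC, male collagen-expressing cells and Leiden clusters of collagen-expressing cells were not run, with under 20 cells in a library. The median depth was lower in the Glut5 KO library, and the number of cells limits pDC and collagen-expressing cells most.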

Other observations

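Cells with markers of more than 1 type, which enter no comparison above, had all 10 members higher in the Glut5 KO library. They come from the same libraries, and the share of all genes higher in them was not counted. H2-K1 was at 2804 CPM in Glut5 KO and 2009 CPM in wildtype mixed cells (log2 ratio 0.48), and H2-Q7 at 385 CPM in Glut5 KO and 212 CPM in wildtype mixed cells (log2 ratio 0.86). In cells with too few markers H2-K1 was at 2396 CPM in Glut5 KO and 2233 CPM in wildtype cells (log2 ratio 0.10) and H2-Q4 had the widest ratio, 0.48. B cells numbered 233 in the Glut5 KO and 20 in the wildtype library. Their log2 ratios ran from -0.38 for Tapbp to 0.82 for H2-Q6, and 7 of the 10 intervals included 0. B2m (-0.13), Tap2 (-0.36) and Tapbp were below 0, and the intervals of H2-K1, H2-Q6 and H2-Q7 lay above it. The 11 monocyte and macrophage markers summed to 1460.3 CPM in Glut5 KO and 3280.2 CPM in wildtype B cells.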
